A study of Mus musculus with 6 samples.

Results

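Mitochondrial ribosomal proteins were defined as the genes whose symbol begins with Mrpl or Mrps followed by a number, pseudogenes left out. The array carried 78 of them, 49 Mrpl and 29 Mrps genes, among 20659 named genes. The samples were C2C12 cells, a mouse myoblast line whose cells stop dividing and form myotubes on induction, at 2 days of differentiation. In 3 samples, labelled si-NC, the cells carried a control siRNA, and in 3, labelled si-lncMGPF, they carried an siRNA directed at lncMGPF, a long noncoding RNA tied to myogenic differentiation. Apart from the siRNA, all samples were the same line, transfected and induced in the same way, and the comparison asks which genes change with the knockdown. The level of lncMGPF was not checked here because no probe carries its name.

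Mitochondria keep their own ribosome, which translates the few membrane proteins of the respiratory chain and ATP synthase that mitochondrial DNA encodes. Its proteins are all encoded in the nucleus, made in the cytosol and imported. Many descend from bacterial ribosomal proteins, while others are particular to mitochondria. The large subunit holds the peptidyl transferase centre and the exit tunnel, and the small subunit decodes the messenger. Differentiating muscle builds up mitochondria as it turns to oxidative metabolism. Symbols do not follow the subunits exactly: the products of Mrps18a and Mrps30 sit in the large subunit, and that of Mrps36 has been described as a subunit of a dehydrogenase complex. The genes are grouped by symbol in what follows.

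The arrays measured 1 colour on 2 slides, as marked by the scan identifiers. All 3 si-NC arrays were on slide 1 together with replicate 1 of si-lncMGPF, whose replicates 2 and 3 made up slide 2. The 75th percentile of the signal ranged from 688.2 to 930.7 intensity units for slide 1 and was 580.2 and 492.1 for slide 2. The share of probes above background was 64.1% to 65.3% for slide 1 and 57.3% and 56.9% for slide 2, and negative control spots averaged 29.2 to 30.6 intensity units on slide 1 and 44.7 and 49.6 on slide 2. Over genes, the si-NC arrays correlated with each other at 0.997 to 0.999, and si-lncMGPF replicate 1 correlated with them at 0.993 to 0.995. The si-lncMGPF arrays correlated with each other at 0.988 to 0.995. All 8 muscle markers examined, Myod1, Myog, Des, Ckm, Myh3, Acta1, Actc1 and Tnnc1, were above background on all 6 arrays. Of 8 markers of other cell types, 5 were above background on no array (Adipoq, Epcam, Krt8, Cdh5 and Col2a1), Plin1 on 1, Ptprc on 5 and Pecam1 on 6. The summed level of the muscle markers was 6.87 to 6.97 in si-NC and 6.85 to 7.01 in si-lncMGPF on the log2 scale described below. This sum follows the brightest markers, which differed in direction. Every si-lncMGPF array was above every si-NC array for Actc1 (log2 change 0.27), as in 9.62% of all genes. For Myh3 (-0.15) every si-lncMGPF array was below, as in 12.6% of all genes. None of the 8 passed the adjusted limma p of 0.05. For the 2 other-cell markers that were tested the sum was -2.01 to -1.69 in si-NC and -1.93 to -0.93 in si-lncMGPF, and their part in the results was not tested. The labels do not tell if the replicates came from separate cultures. The p-values therefore cover only the spread of these 6 samples, possibly a technical one, and their number limits the precision of every value.

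The start regions of these genes share sequence features. RefSeq promoter windows (build GRCm38.p6, 250 bases before and 50 after an annotated start) were found for 69 of the 78 genes, in 75 windows. The ETS core CGGAAG, the element read by GABPA, a classical activator of nuclear genes for mitochondrial proteins, was present on either strand in 40 of the 75 windows, or 53.3%. It was present in 21.1% of the 21263 windows of protein-coding genes and in 16.9% of all 32851 windows of the same length. AAGATGGC, the element of YY1, stood in 16% of the mitoribosomal windows, in 3.05% of protein-coding windows and in 2.75% of all windows. GCATGCGC, the core of the element of NRF1, another activator of mitochondrial genes, stood in 10.7%, 3.52% and 2.71%. The CCAAT box of NF-Y had close shares in the 75 windows (40%), in protein-coding windows (38.2%) and in all windows (37.4%). The E-box CACGTG had 9.33%, 7.84% and 7.15%, and the TATA box TATAAA 6.67%, 12.6% and 13.6%, in the same order. The elements were searched on both strands, and overlaps between them were counted for each. Large and small subunit windows held the ETS core at 24 of 48 and 16 of 27, the NRF1 core at 7 of 48 and 1 of 27, and the YY1 element at 6 of 48 and 6 of 27. A match describes these letters and is not evidence of a bound factor. Median GC content was 58.7% in the mitoribosomal windows and 56.3% in protein-coding windows.

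The 120 bases before the start of 5 of the genes show how these elements are placed, with the searched elements in capitals. They were chosen after their values were seen, from windows that touch no annotated transcript. They span genes with non-overlapping groups (Mrps9 and Mrpl10) and a gene with a wide gap between the slides (Mrps16). The others are a gene with a change near 0 (Mrpl32) and the Mrps gene with the lowest change (Mrps18a). All are on build GRCm38.p6, read 5′ to 3′ on the strand of the gene.
Mrpl10 (chr11:97041462-97041581, plus strand): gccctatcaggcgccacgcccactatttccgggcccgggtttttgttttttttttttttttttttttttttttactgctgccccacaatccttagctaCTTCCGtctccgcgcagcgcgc
Mrpl32 (chr13:14613038-14613157, minus strand): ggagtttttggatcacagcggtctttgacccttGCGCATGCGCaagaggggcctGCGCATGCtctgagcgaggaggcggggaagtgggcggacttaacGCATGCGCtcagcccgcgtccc
Mrps9 (chr1:42851113-42851232, plus strand): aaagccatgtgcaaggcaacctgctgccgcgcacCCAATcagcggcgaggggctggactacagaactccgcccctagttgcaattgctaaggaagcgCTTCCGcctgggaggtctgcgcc
Mrps16 (chr14:20393635-20393754, minus strand): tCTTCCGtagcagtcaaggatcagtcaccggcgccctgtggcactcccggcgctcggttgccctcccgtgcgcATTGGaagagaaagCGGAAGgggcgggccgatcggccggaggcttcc
Mrps18a (chr17:46110884-46111003, plus strand): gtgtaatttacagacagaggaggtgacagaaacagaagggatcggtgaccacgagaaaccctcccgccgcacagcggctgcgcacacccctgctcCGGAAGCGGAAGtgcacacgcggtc
Within the printed 120 bases, Mrpl10, Mrps9, Mrps16 and Mrps18a carry the ETS core or its complement. It begins 22 bases before the start in Mrpl10, 23 in Mrps9, 33 and 119 in Mrps16, and 19 and 25 in Mrps18a. Mrpl32 carries 4 matches to the NRF1 core there, counted on both strands, of which a pair overlaps in a single run. Mrps9 and Mrps16 carry a CCAAT box there, on the other strand in Mrps16. In the full windows, Mrpl32 and Mrps18a also had a CCAAT box and a YY1 element, and Mrpl10 had an NRF1 core. The 38 tested genes with an ETS core had a median log2 change of 0.10 (31 positive) and the 29 without it 0.08 (25 positive). The order was the same for the NRF1 core (0.13 in 8 genes with it, 0.08 in 59 without) and the CCAAT box (0.13 in 27, 0.08 in 40). It was the opposite for the YY1 element (0.06 in 11, 0.10 in 56), the E-box (0.06 in 5, 0.09 in 62) and the TATA box (0.05 in 5, 0.10 in 62). None of these differences was tested.

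Of the 78 genes, 76 passed the filter on dim probes, and all 76 were above background on all 6 arrays, so none entered through a single group. Mrpl21 and Mrpl35 were not well above background on every array of either group and were not tested. Levels are given as log2 of the signal relative to the 75th percentile of the array, which is 0 on this scale, and changes as si-lncMGPF minus si-NC. No mitoribosomal gene passed the adjusted p of 0.05 (limma, Benjamini-Hochberg over 24661 probes), against 0.147% of the 14265 named genes tested. At an unadjusted limma p below 0.05, 7 genes were higher in si-lncMGPF (9.21%) and 0 were lower, where the background was 6.04% higher and 8.14% lower. The lowest adjusted p was 0.19, for Mrps27.

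As a group the genes leaned slightly upward. A positive log2 change was seen in 65 of 76 genes (85.5%), against 54% of all genes. The median change was 0.09, with the central 50% of genes between 0.02 and 0.18, while the median of all genes was 0.02. For the 47 large subunit genes the median was 0.08, with 37 positive, and for the 29 small subunit genes it was 0.13, with 28 positive. This order turned when the probes of a gene were averaged, which gave 0.10 for the large and 0.08 for the small subunit genes, so the subunits have no settled order. Individual changes ran from -0.18 for Mrpl49 to 0.45 for Mrps27, and the 95% intervals of 69 of the 76 genes included 0. By origin, the 45 genes with a bacterial homologue had a median of 0.06 and 39 positive changes, and the 31 others had 0.10 and 26. The per-array medians, taken as each gene's deviation from its si-NC mean, were -0.01 to 0.01 on the si-NC arrays. In si-lncMGPF they were -0.07 for replicate 1, 0.21 for replicate 2 and 0.14 for replicate 3. The 3 si-lncMGPF arrays thus lay on both sides of the si-NC arrays.

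**Figure D1:**
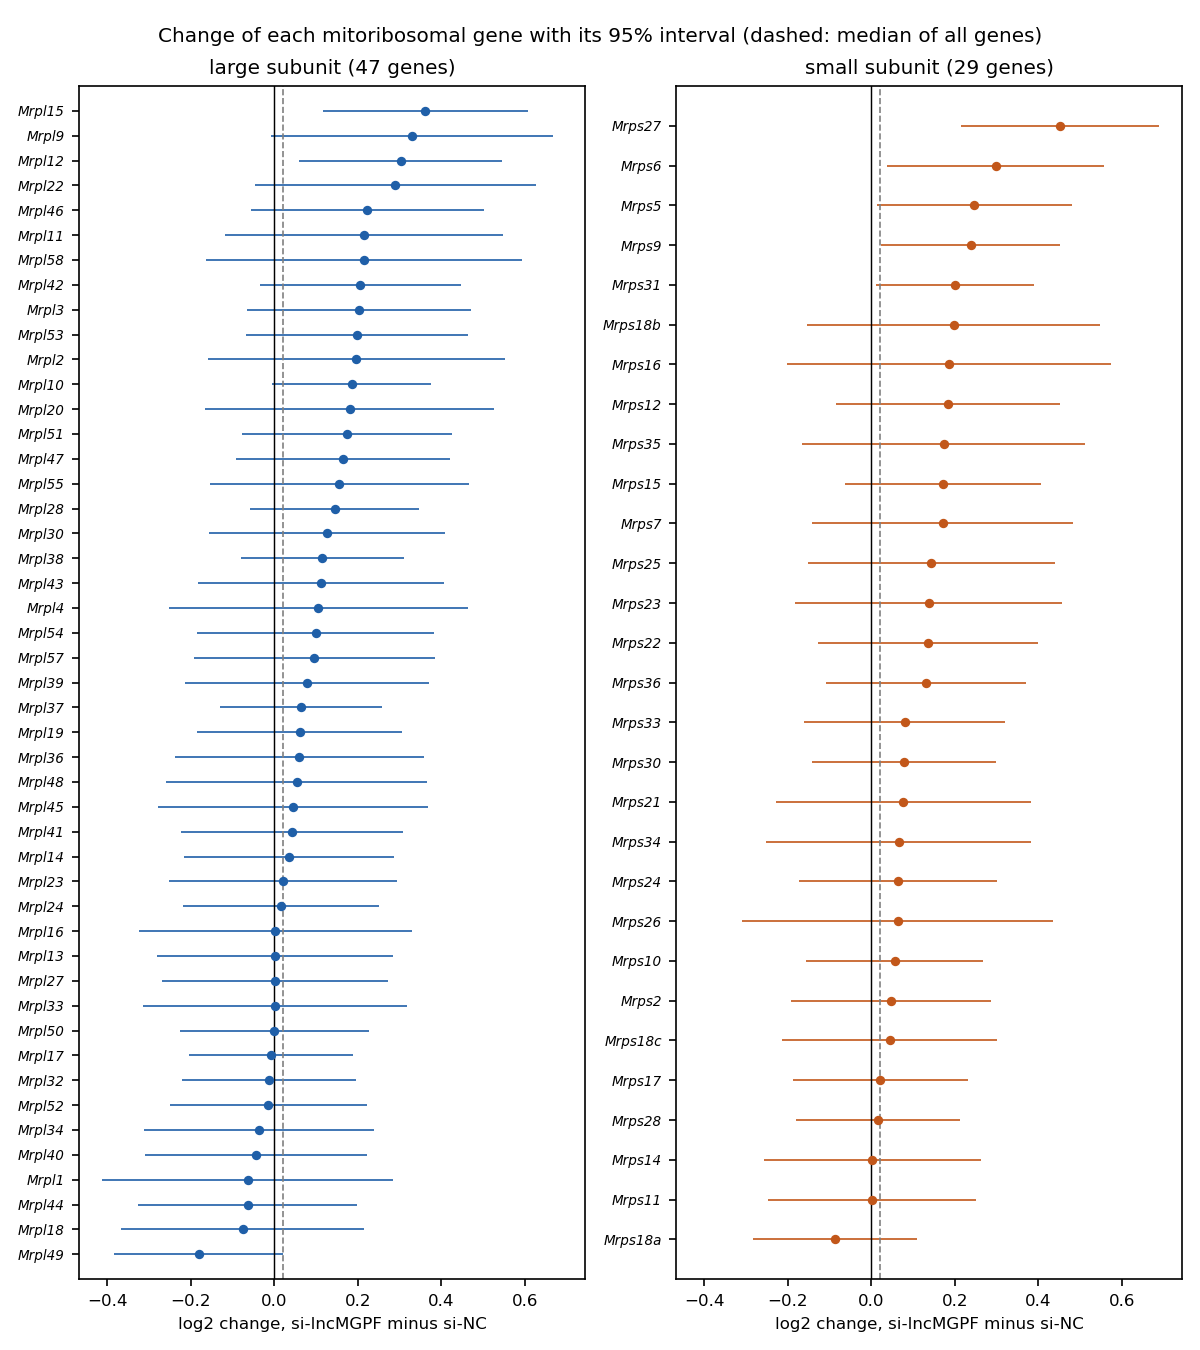
Log2 change (si-lncMGPF minus si-NC, horizontal axis) of the 47 large and 29 small subunit genes, each point a gene and each bar its 95% interval from limma. Most points lie to the right of 0, and the bars of 7 genes stay clear of it, all on the positive side; the dashed line is the median of all genes at 0.02.

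The median was positive on slide 2 and negative on slide 1. With si-NC as the reference, slide 2 had a median change of 0.18 over the 76 genes, with 69 positive, where all genes had 0.06. The si-lncMGPF array on slide 1, the slide that also held the si-NC arrays, had a median of -0.07 with 26 positive, where all genes had -0.07. By subunit, the slide 1 and slide 2 medians were -0.09 and 0.16 for the large and -0.03 and 0.20 for the small. The array on slide 1 was above the si-NC range for 19 genes (25%, background 29.1%) and below it for 44 (57.9%, background 49.5%). Both arrays on slide 2 were above that range for 48 genes (63.2%, background 34%) and below it for 2 (2.63%, background 20.3%). These comparisons share the si-NC arrays and so are not independent. A fit with slide as a block gives the slide 1 change, which rests on 1 si-lncMGPF array, and it called 0 of the 76 genes (lowest adjusted p = 0.199 by limma, for Mrps27). Slide and knockdown cannot be told apart for the slide 2 arrays.

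**Figure D2:**
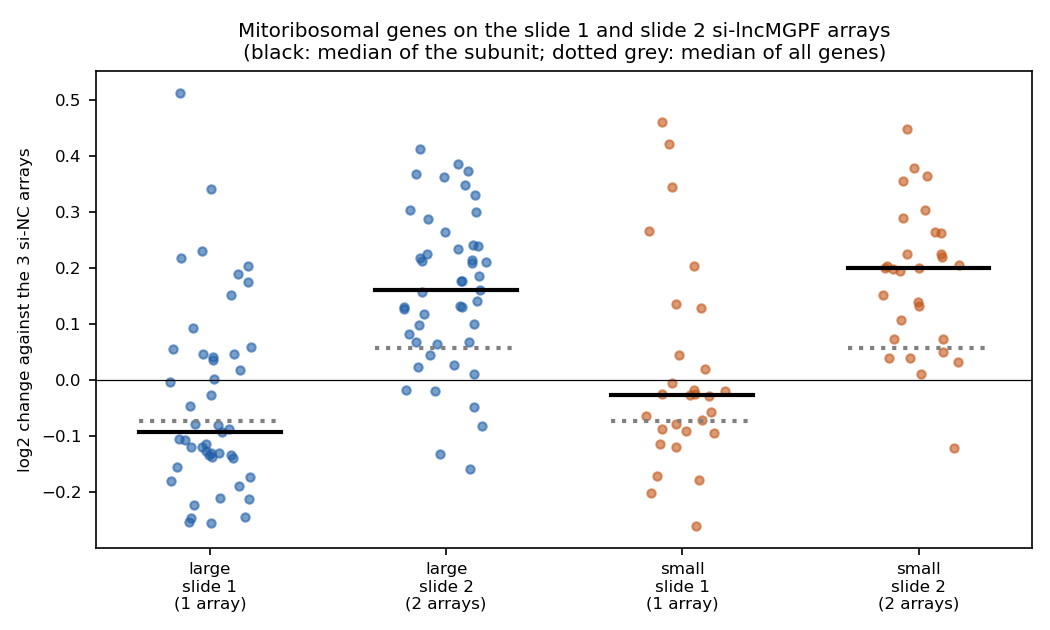
Log2 change of each mitoribosomal gene (points) on the slide 1 si-lncMGPF array and as the mean of the slide 2 si-lncMGPF arrays, both against the 3 si-NC arrays, with horizontal jitter. The subunit medians (black) are at -0.09 and 0.16 for the large and -0.03 and 0.20 for the small subunit, beside medians of all genes (dotted grey) of -0.07 and 0.06.

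Most of these genes gave bright probes, and in all genes the gap between the slides differed with signal. Of the 76 genes, 39 fell in the brightest of 5 equal bins of all genes by mean signal, 24 in the next, 11 in the middle, 2 in the fourth and 0 in the dimmest. In the brightest bin the other genes had a median of 0.05 over all arrays, -0.15 on slide 1 and 0.14 on slide 2, and the mitoribosomal genes had 0.08, -0.12 and 0.19. In the next bin the other genes had 0.01, -0.14 and 0.08 and the mitoribosomal genes 0.12, -0.02 and 0.17. The mitoribosomal medians were above those of the other genes of the same bin, in both bins and on both slides. The brightest bin runs from 2.14 to 7.92, so signal is matched only roughly. In the middle bin the 11 mitoribosomal genes had 0.16, with 0.20 on slide 1 and 0.07 on slide 2, so there the slide 1 array was the higher, while the other genes had 0.01, -0.06 and 0.04. Positive changes were found in 35 of 39 and 18 of 24 mitoribosomal genes in these bins, against 63% and 52.6% of the other genes. Whether signal or slide accounts for the shift was not tested.

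**Figure D3:**
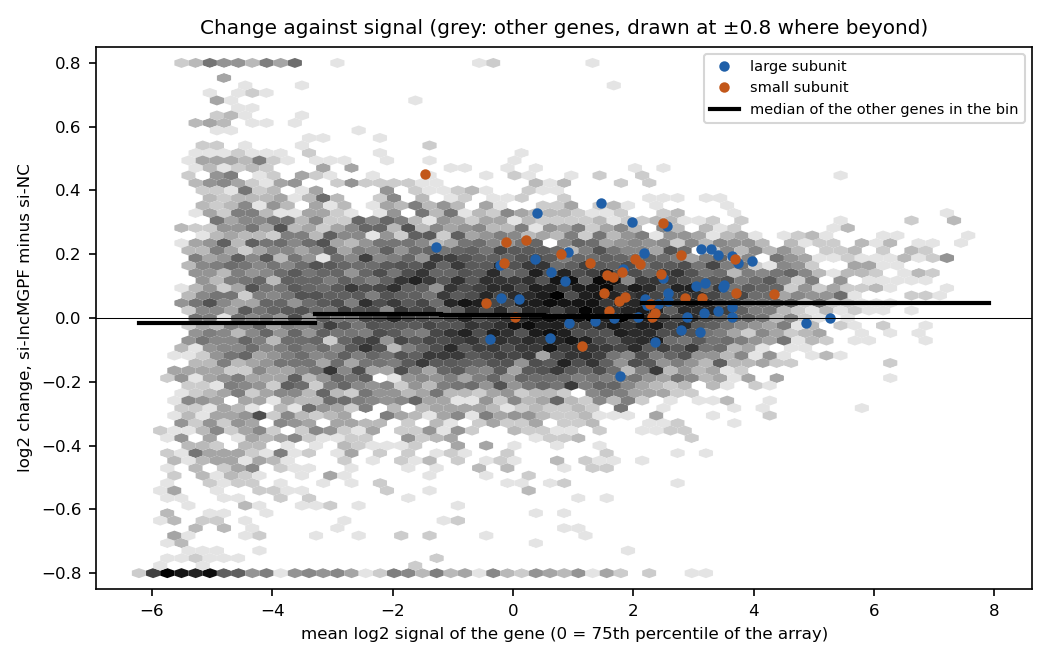
Log2 change (vertical) against mean log2 signal (horizontal, 0 being the 75th percentile of the array) for mitoribosomal genes (coloured points) and all other genes (grey density, darker for more genes). Black bars mark the median of the other genes in 5 bins of signal, which is 0.05 in the brightest bin, where 39 mitoribosomal genes lie and 35 of them are above 0.

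In 13 of the 76 genes (17.1%) every si-lncMGPF array was above every si-NC array, against 9.62% of all genes, and in 1 (1.32%) every si-lncMGPF array was below, against 12.6%. The 13 were Mrpl10, Mrpl12, Mrpl15, Mrpl28, Mrpl37, Mrpl38 and Mrpl42 of the large subunit and Mrps5, Mrps6, Mrps9, Mrps15, Mrps27 and Mrps31 of the small. The gene with the opposite order was Mrpl49. In all of these the si-lncMGPF array on slide 1 shared the direction, as the definition requires. For the other 62 genes the groups overlapped. The share differed with signal: in the brightest bin 1 of 39 mitoribosomal genes (2.56%) had every si-lncMGPF array above, below the 8.29% of the other genes, while in the next bin it was 7 of 24 (29.2%, against 9.74%) and in the middle bin 4 of 11 (36.4%, against 10.6%).

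Mrps27 encodes an RNA-binding pentatricopeptide repeat protein of the small subunit with no bacterial counterpart. Its level was -1.74, -1.69 and -1.61 in si-NC and -1.22, -1.36 and -1.11 in si-lncMGPF, each in the order of the replicate numbers, as in what follows. The groups were well separated and both slides showed the same size of difference, 0.46 on slide 1 and 0.45 on slide 2. The log2 change was 0.45 (SE 0.10, 95% interval 0.22 to 0.69, 1.37-fold, n = 3 per group), with a limma adjusted p of 0.19. Mrps5, whose product lines the messenger entry of the small subunit, had 0.19, -0.0015 and 0.07 in si-NC and 0.43, 0.24 and 0.33 in si-lncMGPF. The slide 1 array was the highest of the 6. The change was 0.25 (SE 0.10, limma adjusted p = 0.295), with 0.34 on slide 1 and 0.20 on slide 2.

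Mrps9, a protein of the head of the small subunit near the transfer RNAs, had -0.14, -0.33 and -0.23 in si-NC and 0.03, 0.01 and -0.03 in si-lncMGPF. The si-lncMGPF arrays were tightly grouped, with an SD of 0.03 against 0.10 in si-NC. Its change was 0.24 (SE 0.09, limma adjusted p = 0.281), with 0.26 on slide 1 and 0.22 on slide 2. Mrps31, another small subunit protein without a bacterial counterpart, had 0.73, 0.68 and 0.67 in si-NC and 0.90, 0.88 and 0.90 in si-lncMGPF. The si-lncMGPF arrays differed by less than the si-NC arrays did, with an SD of 0.009 against 0.04. The change was 0.20 on both slides and over all arrays (SE 0.08, limma adjusted p = 0.293).

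Mrps6 and Mrpl12 also had separate groups, with the slide 1 array nearest to si-NC. Mrps6, a homologue of a bacterial protein of the platform of the small subunit, had 2.44, 2.26 and 2.31 in si-NC and 2.48, 2.76 and 2.68 in si-lncMGPF. Mrpl12, the stalk protein that recruits translation factors and is also known to bind the mitochondrial RNA polymerase, had 1.93, 1.73 and 1.81 in si-NC and 1.99, 2.18 and 2.19 in si-lncMGPF. For both, si-lncMGPF replicate 1 lay just above the highest si-NC array. Their changes were 0.30 (SE 0.11, limma adjusted p = 0.274) and 0.30 (SE 0.10, limma adjusted p = 0.258). The slide 1 change was 0.14 for Mrps6 and 0.17 for Mrpl12, and the slide 2 change 0.38 and 0.37.

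Mrpl15, a core protein of the large subunit with a bacterial homologue, was read by a pair of probes. The brighter had 1.34, 1.21 and 1.28 in si-NC and 1.62, 1.51 and 1.79 in si-lncMGPF, and the other had 1.21, 1.13 and 1.21 in si-NC and 1.41, 1.53 and 1.502 in si-lncMGPF. The groups were separate on both probes. The changes were 0.36 (SE 0.10, limma adjusted p = 0.228) and 0.30 (SE 0.08, limma adjusted p = 0.228). On the brighter probe the change was 0.34 on slide 1 and 0.37 on slide 2.

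**Figure D4:**
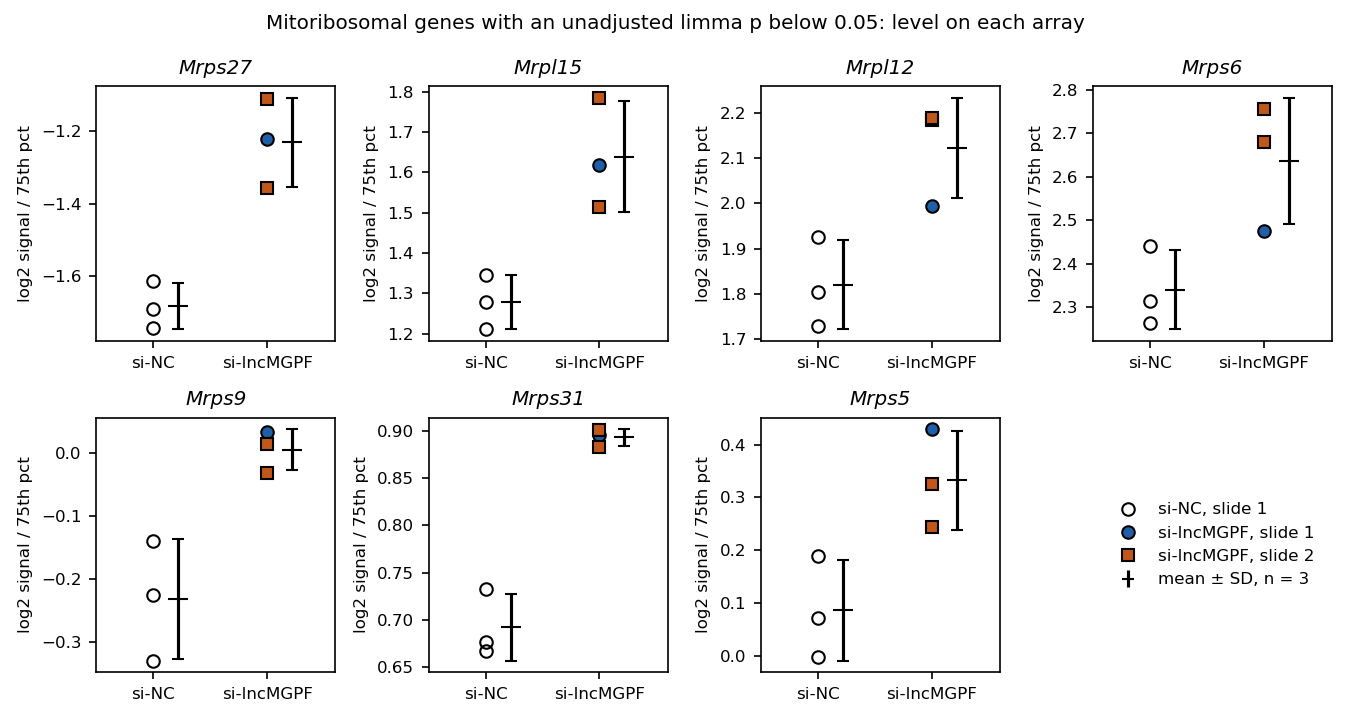
Log2 signal relative to the 75th percentile of the array (vertical axis, scaled for each gene) of the 7 mitoribosomal genes with an unadjusted limma p below 0.05, by group, with the mean ± SD (n = 3). Open circles are si-NC arrays, the filled circle the slide 1 si-lncMGPF array and squares the slide 2 si-lncMGPF arrays; all si-lncMGPF points lie above the si-NC points in the 7 genes, by the least in Mrps6 (2.48 against 2.44).

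Among large subunit genes 78.7% had a positive change, against 54% of all genes, and counts by role are to be read beside these shares. By role, the stalk had positive changes in 3 of 3 genes. Beside Mrpl12, Mrpl10, which anchors the stalk, had a change of 0.18 (SE 0.08, limma adjusted p = 0.326; 0.27, 0.31 and 0.26 in si-NC and 0.48, 0.42 and 0.49 in si-lncMGPF) and Mrpl11, at the stalk base, 0.22 (SE 0.14). Mrpl11 had a slide 1 change of -0.08 and a slide 2 change of 0.36, whereas Mrpl10 had 0.20 and 0.18. Around the peptidyl transferase centre, where peptide bonds form, 4 of 4 genes were positive with a median of 0.10, Mrpl3 being highest at 0.20 and Mrpl27 lowest at 0.002. Around the exit tunnel, through which the new chain leaves, 6 of 8 were positive with a median of 0.03. Mrpl22 was highest there at 0.29 (SE 0.14, limma adjusted p = 0.362), with 0.05 on slide 1 and 0.41 on slide 2. Mrpl44, which has the fold of an RNase III enzyme, was lowest at -0.06 (SE 0.11), and Mrpl45, which ties the ribosome to the inner membrane, had 0.04 (SE 0.14). In the central protuberance 3 of 5 were positive with a median of 0.05, from -0.08 for Mrpl18 to 0.22 for Mrpl46. Mrpl58, a hydrolase that frees stalled chains, had 0.21 (SE 0.16), with -0.13 on slide 1 and 0.39 on slide 2. None of the genes of these role groups passed the threshold.

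The large subunit gene with the next smallest p, Mrpl9, had 0.35, 0.13 and 0.22 in si-NC and 0.75, 0.29 and 0.66 in si-lncMGPF, and its groups overlapped through si-lncMGPF replicate 2. The change of Mrpl9, a homologue of a bacterial large subunit protein, was 0.33 (SE 0.14, limma adjusted p = 0.323). Negative changes were seen in 10 large subunit genes, of which Mrpl49, a mitochondria-specific protein, had the smallest p. Mrpl49 had 1.85, 1.90 and 1.85 in si-NC and 1.65, 1.77 and 1.65 in si-lncMGPF, so that every si-lncMGPF array was below every si-NC array. The change was -0.18 (SE 0.08, limma adjusted p = 0.349), with -0.22 on slide 1 and -0.16 on slide 2. A second probe of Mrpl49 gave 0.16 (SE 0.11), so the gene has no settled direction. The next negative changes were -0.08 for Mrpl18 (SE 0.12), -0.06 for Mrpl44, -0.06 for Mrpl1 (SE 0.15) and -0.05 for Mrpl40 (SE 0.11), each smaller than its error. Mrpl33, the brightest large subunit probe, had 0.001 (95% interval -0.32 to 0.32).

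In the small subunit 96.6% of the genes had a positive change, so positive role groups are not particular to a role. The 3 genes of the decoding site and messenger channel had 0.25 for Mrps5, 0.18 for Mrps12 (SE 0.11) and 0.06 for Mrps24 (SE 0.10). Mrps12, at the decoding centre, had -0.03 on slide 1 and 0.29 on slide 2. In the head 4 of 4 were positive with a median of 0.11, from 0.002 for Mrps14 to 0.24 for Mrps9. Of 6 chosen proteins without a bacterial counterpart (Mrps22, Mrps23, Mrps26, Mrps27, Mrps34 and Mrps35) all were positive, with a median of 0.14 and a lowest value of 0.06 for Mrps26. They are only a part of such genes, Mrps25, Mrps30, Mrps31, Mrps33 and Mrps36 being others by symbol. Over both subunits, 83.9% of genes without a bacterial homologue were positive, against 86.7% of those with a homologue. The Mrps18 paralogues differed in sign, with 0.20 for Mrps18b (SE 0.15), 0.04 for Mrps18c (SE 0.11) and -0.09 for Mrps18a (SE 0.08), but the 95% intervals overlapped widely (-0.28 to 0.11 for Mrps18a and -0.15 to 0.55 for Mrps18b), and the difference between them was not tested. Mrps18a had 1.21, 1.17 and 1.20 in si-NC and 1.18, 1.08 and 1.07 in si-lncMGPF. It was the only Mrps gene with a negative change, though its product sits in the large subunit. Mrps16, a homologue of a bacterial small subunit protein, shows the slide pattern most plainly: it had 3.62, 3.63 and 3.52 in si-NC, 3.42 on si-lncMGPF replicate 1 and 4.01 and 3.90 on replicates 2 and 3. Its change was 0.19 (SE 0.16), with -0.17 on slide 1 and 0.36 on slide 2. Mrps21, the brightest small subunit probe, had 0.08 (95% interval -0.23 to 0.38).

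A pair of probes was tested for 21 genes, and in 8 of them the probes had opposite signs. The other probe of Mrpl41 had -2.32, -2.57 and -2.55 in si-NC and -2.68, -3.36 and -3.65 in si-lncMGPF, a change of -0.75 (SE 0.24, limma adjusted p = 0.25), whereas the probe that stands for the gene had 0.04 (SE 0.11). For Mrps33 the other probe, which names a different transcript accession, had -0.71, -0.80 and -0.80 in si-NC and -0.97, -1.38 and -1.52 in si-lncMGPF, a change of -0.52 (SE 0.15, limma adjusted p = 0.229), against 0.08 (SE 0.10). In both genes the dimmer probe separated the groups, with the slide 2 arrays lowest, and the brighter probe did not. In the opposite direction, the dimmer probe of Mrpl50 had 0.35 (SE 0.12) and that of Mrpl27 0.27 (SE 0.09), while the brighter probes had -0.0009 (SE 0.09) and 0.002 (SE 0.11). Examples of close values were Mrpl4 (0.11 and 0.11), Mrps18b (0.20 and 0.20), Mrpl10 (0.18 and 0.20) and Mrpl40 (-0.05 and -0.04). These 4 genes were chosen after their values were seen. On the other probe of Mrpl10 the groups overlapped, with -1.27, -1.28 and -1.23 in si-NC and -0.78, -1.32 and -1.08 in si-lncMGPF.

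**Figure D5:**
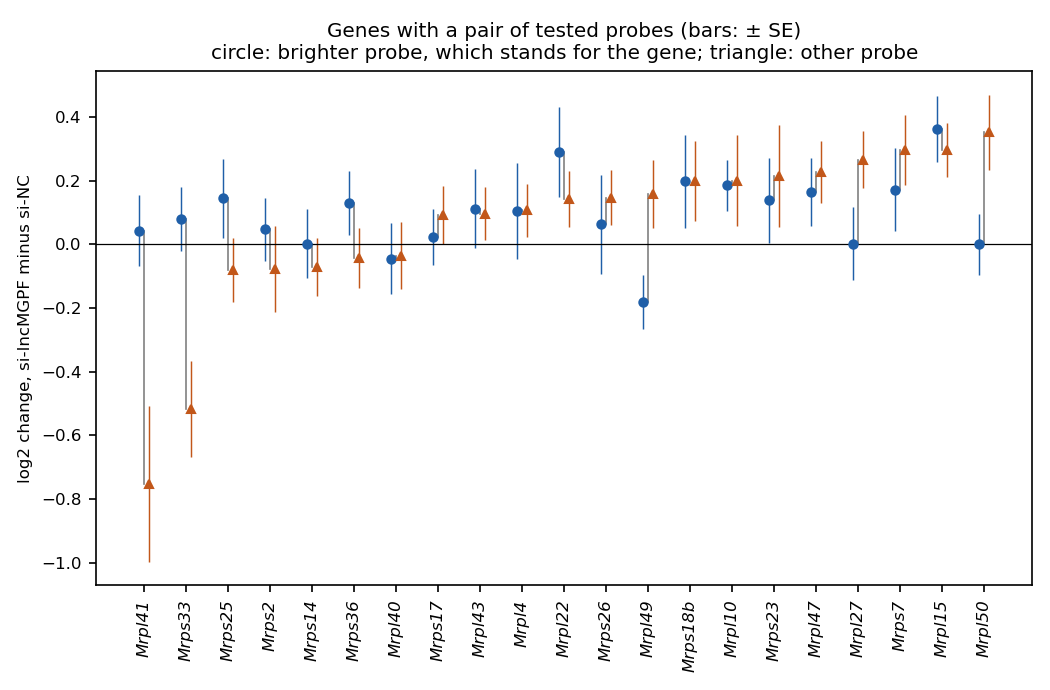
Log2 change (± SE) of the brighter probe (circle) and the other probe (triangle) for the 21 mitoribosomal genes with a pair of tested probes, ordered by the other probe. The widest gaps are at Mrpl41 (0.04 and -0.75) and Mrps33 (0.08 and -0.52), and the probes differ in sign in 8 genes.

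Other genes of mitochondrial translation were also examined, and none passed the threshold. Of 5 mitoribosomal proteins with other names (Dap3, Ptcd3, Aurkaip1, Chchd1 and Gadd45gip1) all had positive changes, with a median of 0.14, from 0.03 for Aurkaip1 to 0.30 for Chchd1. They had a median of -0.11 on slide 1 and 0.26 on slide 2. Of 24 tested assembly and ribosomal RNA modification factors 15 were positive, with a median of 0.06, where 54% of all genes were positive. At an unadjusted limma p below 0.05, 2 were higher and 1 lower, against 6.04% and 8.14% of all genes. Noa1, a GTPase needed for ribosome assembly, had the lowest change at -0.38 (SE 0.08, limma adjusted p = 0.183), with -0.35 on slide 1 and -0.40 on slide 2. Mrm2, a methyltransferase of the large ribosomal RNA, had the highest at 0.46 (SE 0.23), and its probe was above background on 5 arrays. Of 15 translation factors 12 were positive, with a median of 0.08. Tsfm, the exchange factor of the elongation factor Tufm, had 0.30 (SE 0.08, limma adjusted p = 0.223) with 0.27 on slide 1 and 0.31 on slide 2, and Oxa1l, which inserts new chains into the inner membrane, had -0.12 (SE 0.09).

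Of 19 mitochondrial aminoacyl-tRNA synthetase and amidotransferase genes 12 were positive, with a median of 0.07, where 54% of all genes were positive. At an unadjusted limma p below 0.05, 0 were higher and 2 lower, against 6.04% and 8.14% of all genes. The highest was Iars2, the isoleucine enzyme, at 0.39 (SE 0.25), with 0.76 on slide 1 and 0.21 on slide 2. Of 10 genes of mitochondrial DNA transcription and maintenance 7 were positive, with a median of 0.10. Tefm, the elongation factor of the mitochondrial RNA polymerase, had 0.43 (SE 0.13, limma adjusted p = 0.234), and the polymerase gene Polrmt -0.12 (SE 0.12). Tfam, which packages mitochondrial DNA, had 0.33 (SE 0.10, limma adjusted p = 0.23), with 0.39 on slide 1 and 0.30 on slide 2. It was chosen after its values were seen.

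Of 9 nuclear regulators of mitochondrial genes 5 were positive, with a median of 0.04, where 54% of all genes were positive. At an unadjusted limma p below 0.05, 1 was higher and 2 were lower, against 6.04% and 8.14% of all genes. The coactivator gene Ppargc1b had the lowest change, -0.78 (SE 0.20, limma adjusted p = 0.214), with -0.32 on slide 1 and -1.01 on slide 2, and its relative Ppargc1a the highest, 0.22 (SE 0.08, limma adjusted p = 0.281), with 0.15 and 0.26. Among genes of factors whose elements were searched in the promoters, Gabpa had -0.10 (SE 0.09), Nrf1 0.07 (SE 0.12) and Yy1 -0.18 (SE 0.12). For each of the 3 the 95% interval included 0. Every si-lncMGPF array was below every si-NC array for Gabpa (1.6669 against 1.6715 at the closest), as in 12.6% of all genes. For Nrf1 and Yy1 the groups overlapped.

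The si-lncMGPF arrays on which these results rest can be left out in turn. Without replicate 1 the groups lie on different slides, the median over the 76 genes was 0.18, and limma called 13 of them (17.1%), all higher, against 14.7% of all genes called in either direction and 7.37% called higher. Those 13 included Mrps27, Mrps6 and Mrpl12. Without replicate 2 the median was 0.02 with 45 genes positive, and without replicate 3 it was 0.08 with 67 positive. In both, limma called 0 of the 76, against 0.028% and 0% of all genes. With array weights limma called 30 of the 76 (39.5%), 29 of them higher and 1 lower. In that setting 38.2% of all genes were called in either direction and 21.1% were called higher.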

How the data were processed

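Total RNA of 6 C2C12 samples, grouped by siRNA, was read on 1-colour (Cy3) Agilent mouse arrays, as the labels state. Deposited were scanner tables of intensity values, which Feature Extraction 11.0.1.1 had corrected for background and detrended, per the file headers. The series table of the authors equalled them at all 44397 spots of each array. What the authors tested is not given here.

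Of 43020 non-control spots, outliers (117 to 134 per array) were left out and the spots of a probe averaged (39429 probes). Values were log2 signal minus the array's 75th percentile, which hides a shift of most transcripts. A probe was tested if well above background, in at least 50% of its spots, on every array of at least 1 group (24661 probes). Accessions without versions named 27234 probes through a RefSeq table (GRCm38.p6), used for names because the array design is on another build. The brightest tested probe stood for a gene.

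The comparison used lmFit and eBayes of limma 3.58.1 (R 4.3.3) without covariates, and p-values were adjusted by Benjamini-Hochberg across all probes tested. List medians carry no test. The fit was run on simulated data with independent normal values and no slide effect. That run cannot show how the fit behaves where slide and group overlap. Promoters were searched and figures drawn with Python 3.11.15 and matplotlib 3.10.9. Members, lists and tests were chosen with earlier results of these data known. Named were the 5 members per direction and subunit with the smallest p, the brightest of each subunit, and for role and pathway lists mainly the highest and lowest members; 1 pathway gene is not reported here. Alternatives were other scalings, normexp, other dim-probe filters, an intensity trend, array weights, slide and replicate blocks, slide 1 alone, the series table, mean probes and each array left out; normexp used median spot signals. Cyclic loess was chosen after seeing the data.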

Additional observations from a re-analysis of the deposited data

How the results depend on the processing

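Under 19 alternatives, 12 of the 18 named members kept their direction throughout; of 342 values 311 kept direction and side of the threshold, 13 passed it and 18 changed sign. The count of members called by limma was 0 in all alternatives but 2. Array weights called 30 of 76 members (39.5%), 29 higher and 1 lower. Of all genes they called 38.2%, with 21.1% called higher. The member median was then 0.148 and the large subunit median 0.126. Weights ran from 0.125 for si-lncMGPF replicate 1 to 9.385 for si-NC replicate 3. Leaving out each array in turn gave 0 to 13 members called. The 13 (17.1%), all higher, came without si-lncMGPF replicate 1, where 14.7% of all genes were called and 7.37% were called higher. With the probes of a gene averaged, the medians were 0.0994 for large and 0.079 for small subunit genes, the reverse of the main order. In the main setting 7 members (9.21%) were higher at an unadjusted limma p below 0.05, against 6.04% of all genes. For the other settings the share of all genes at that p was not computed, so no count is given. Slide as a block and slide 1 alone estimate the same change from 1 si-lncMGPF array assumed to vary like the others. In both the median was -0.0926 for large subunit genes, -0.0266 for small subunit genes and -0.0686 for all 76 members. All genes tested had a median of -0.0723 with the slide block and -0.0725 on slide 1 alone. Mrpl18 had 0.0358, Mrpl33 -0.255 and Mrps21 -0.179. Mrpl33 had -0.0511 with quantile normalization, -0.107 with normexp and -0.0707 with cyclic loess. The cause was not tested. Leaving out each array in turn, the medians ranged from 0.0101 to 0.160 (large), 0.0594 to 0.199 (small) and 0.0198 to 0.181 (all), lowest without si-lncMGPF replicate 2 and highest without si-lncMGPF replicate 1; Mrpl33 ranged from -0.0962 to 0.129, Mrpl44 from -0.145 to 0.0269, Mrpl40 from -0.147 to 0.0102, Mrps21 from -0.0124 to 0.204, Mrpl18 from -0.140 to 0.0435 and Mrpl1 from -0.190 to 0.0797. Over all settings the adjusted p was 0.00399 to 0.645 for Mrps27 and 0.0041 to 0.645 for Mrpl15. Positive changes numbered 56 of 76 with cyclic loess, 59 with quantile normalization and 67 with median centring, against 65; without si-lncMGPF replicate 2 they numbered 45.

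Replicate numbers are shared by the groups, but the labels do not pair them, and the deviations of same-numbered samples correlated at 0.15, 0.325 and -0.066. With the replicate block, limma called 0 probes, against 26, and 0 members, with a median of 0.0876 over all members.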
